A study of Mus musculus with 24 samples.

Results

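The 38 genes described here encode the core of the Mediator complex, that is its 26 subunits outside the kinase module, and the 12 subunits of RNA polymerase II. They were listed by gene symbol, by membership of the complexes, and matched through each probe's accession; the list was drawn up with earlier results of these data known. The arrays carried 46 probes for 32 of them, and 30 genes (23 of Mediator, 7 of polymerase II) were tested among 22387 genes in all. Med6, Polr2a, Polr2d, Polr2e, Polr2i and Polr2l were not matched to a probe and were not analysed here. Med14 and Med17 were matched but not tested, for the reasons given with their values.

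Mediator is a large complex that carries signals from DNA-bound activators to RNA polymerase II at promoters. Its head and middle modules contact the polymerase, its tail receives activators, and Med14 is the backbone that joins the modules. The separable kinase module, which holds Cdk8, cyclin C, Med12 and Med13, binds the core reversibly and, while bound, keeps the polymerase off it. Embryonic stem cells are known to depend on Mediator for the expression of their identity genes.

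The study used R1, a mouse embryonic stem cell line, infected with lentivirus that carried a short hairpin RNA. The hairpins against Cdk8 were named shCdk8-1 and shCdk8-2, those against Med12 were named shMed12-1 and shMed12-2, and shNTC was the control. RNA was taken 8 days after infection from control and Cdk8 hairpin cells, and at 13 days from all 5 kinds of cells. Each of these 8 groups had 3 samples labelled biological replicates, 24 arrays in all. The labels do not say whether the replicates were separate infections, and if they were not, the p-values speak of technical spread alone. The results therefore come from 1 cell line under partial, hairpin-driven loss of the target mRNA. The question followed here was whether the mRNAs of the core complex and of the polymerase changed when a kinase module mRNA was lowered.

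Each array set a Cy5-labelled sample against a Cy3-labelled reference RNA pooled from several mouse cell lines, so a level below is a log2 ratio of sample to reference and a change is a difference of log2 ratios. Levels of different genes are not compared, because the reference differs from gene to gene. The share of spots well above background in Cy5 ran from 48.9% to 76.1%, with the lowest value in shCdk8-2 day 13 replicate 3. Replicate 1 of shCdk8-1 on day 8 and replicate 3 of shMed12-1 on day 13 were distorted: on these 2 arrays a few very low spots pulled the background fit and shrank the log ratios to a slope of 0.76 against the other replicates of the group. Refitting without those spots brought the slopes to 0.96 and 1.00. The counts of members called are also given with that refitted background. Of 10 embryonic stem cell markers 9 were tested, and all 9 were well above background in every group. Their mean log2 ratio lay between 6.18 and 6.31 with shNTC on day 8, and between 4.91 and 5.68 with shMed12-1, which holds a distorted array.

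The targeted mRNAs fell with their own hairpins. Cdk8, the kinase of the module, stood on day 8 at -0.57, -0.41 and -0.55 with shNTC, -1.27, -1.33 and -1.05 with shCdk8-1 and -0.87, -0.85 and -0.73 with shCdk8-2. By day 13 the arrays read -0.57, -0.57 and -0.46 with shNTC, -1.37, -1.54 and -1.54 with shCdk8-1, -1.28, -1.16 and -1.07 with shCdk8-2, -0.48, -0.47 and -0.36 with shMed12-1 and -0.69, -0.70 and -0.71 with shMed12-2. Its mean change over both Cdk8 hairpins was -0.51 on day 8 (adjusted p = 1.7e-05) and -0.79 on day 13 (adjusted p = 1.5e-07). Med12, the subunit that activates the kinase, stood on day 13 at -1.11, -0.88 and -0.97 with shNTC, -0.95, -0.88 and -0.86 with shCdk8-1, -0.86, -0.85 and -0.90 with shCdk8-2, -2.01, -2.02 and -1.93 with shMed12-1 and -1.84, -2.002 and -1.76 with shMed12-2, a mean change of -0.94 with both Med12 hairpins (adjusted p = 2.9e-09). All adjusted p-values are from limma with Benjamini-Hochberg adjustment over all genes tested, and a gene is called at an adjusted p under 0.05.

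The core Mediator and polymerase II mRNAs stood close to the control beside these changes. Over both hairpins, the changes of the 30 tested members lay between -0.22 and 0.23 in Cdk8 knockdown on day 8, between -0.18 and 0.19 on day 13, and between -0.18 and 0.18 in Med12 knockdown. The median size of a member's change was 0.10, 0.048 and 0.066 in the same order, against 0.093, 0.086 and 0.10 for all genes. The 95% interval of every tested member stayed within 2-fold in every comparison made. It stayed within 1.25-fold for 25 of 30 members in Cdk8 knockdown on day 8, for 29 of 30 on day 13 and for 30 of 30 in Med12 knockdown. These intervals are per gene and are not adjusted for the number of genes. The ranges and intervals hold for the brightest kept probe of each gene. A further Med22 probe, described below, gave a mean change of -0.49 in Med12 knockdown, outside the range given.

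**Figure D1:**
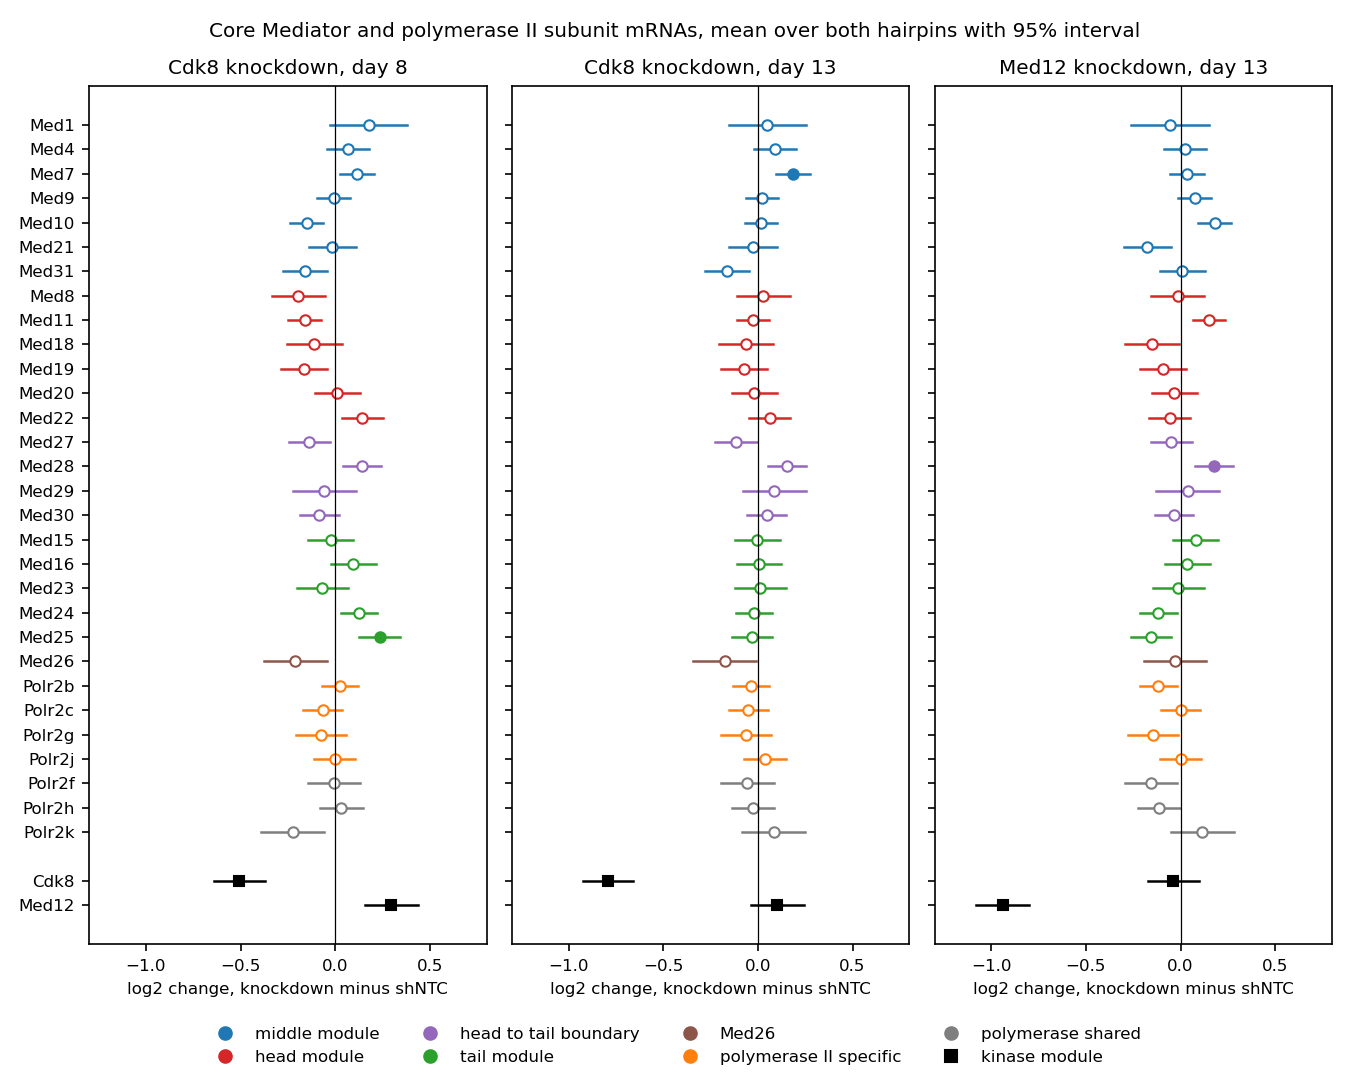
Log2 change of each tested member (circles, coloured by role; filled where both hairpins were called in 1 direction) and of Cdk8 and Med12 (black squares), as the mean over both hairpins minus shNTC with its 95% interval, in 3 panels by knockdown and day. Members, each shown by its brightest kept probe, lie between -0.22 and 0.23, while the targeted mRNAs lie at -0.51, -0.79 and -0.94.

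Counted by hairpin, members were called about as often as genes at large. With shCdk8-1 on day 8, 4 members were called, 13.3% of the 30 against 16.9% of all genes, and 3 of them were higher. With shCdk8-2 on day 8, 6 were called, 20% against 14.0%, of which 2 were higher. On day 13 there were 3 with shCdk8-1 (10% against 12.7%; 2 higher) and 2 with shCdk8-2 (6.67% against 11.6%; both higher). In shMed12-1 cells 6 were called (20% against 24.9%; 2 higher), and in shMed12-2 cells 5 (16.7% against 17.9%; 2 higher). With the background refitted, the same 4 members were called with shCdk8-1 on day 8 and the same 6 with shMed12-1, where 21.7% and 26.9% of all genes were called. The refit raised the count for shCdk8-2 on both days, although neither array is of that hairpin: on day 8 from 6 to 8 (20.4% of all genes), adding Med16 and Polr2k, and on day 13 from 2 to 4 (17.5% of all genes), adding Med11 and Med31. Most of the 26 single-hairpin calls were lost under other settings. With the slide as a block 7 of the 26 held, against 37.4% of such calls of all genes, and these were all 5 of shMed12-2 and Med25 with shCdk8-2 on day 8 and with shMed12-1. The cells with shCdk8-1 on either day and with shMed12-1 shared no slide with shNTC of the same day. The slide block therefore set them against the control only through other groups. Its median SE of a member was 0.094, 0.088 and 0.095 for them, against 0.066 for shMed12-2. Slide and hairpin are thus confounded in these comparisons. When arrays were centred on the median without loess, none held, against 17.6% of such calls of all genes. Only 1 member in each knockdown and day was called in the same direction with both hairpins: Med25 on day 8 and Med7 on day 13 in Cdk8 knockdown, and Med28 in Med12 knockdown. This rule called 5.11%, 4.24% and 8.65% of all genes in those comparisons. All knockdowns of a day share the same 3 shNTC arrays.

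**Figure D2:**
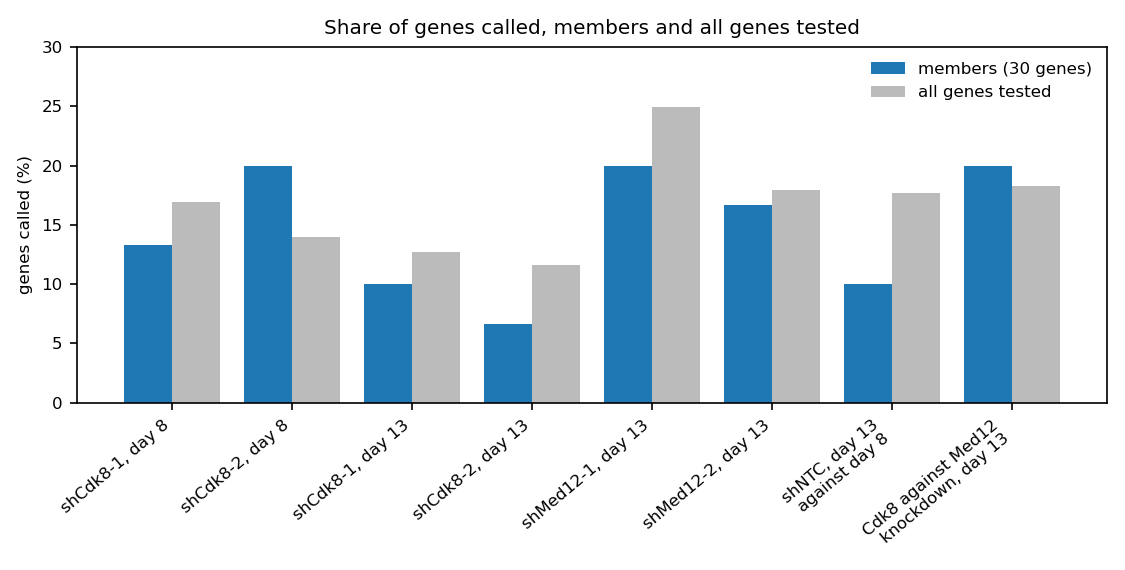
Share of genes called at an adjusted p under 0.05 in each comparison (percent, linear axis from 0), for the 30 tested members (blue) and all 22387 genes tested (grey). The members range from 6.67% to 20% and all genes from 11.6% to 24.9%.

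Among the tail subunits, which receive activators, Med25 was higher in Cdk8 knockdown on day 8. Its level then was 0.56, 0.48 and 0.50 with shNTC, 0.81, 0.62 and 0.76 with shCdk8-1 and 0.82, 0.69 and 0.80 with shCdk8-2. All 6 knockdown arrays lay above the 3 control arrays, and the mean change was 0.23 (95% interval 0.13 to 0.34, adjusted p = 0.0039). On day 13 the level was 0.64, 0.74 and 0.77 with shNTC, 0.77, 0.89 and 0.76 with shCdk8-1, 0.61, 0.56 and 0.53 with shCdk8-2, 0.42, 0.47 and 0.44 with shMed12-1 and 0.59, 0.74 and 0.72 with shMed12-2. There the control itself stood higher than on day 8 and the hairpins split: the mean change was -0.03 (95% interval -0.14 to 0.08, adjusted p = 0.78) for Cdk8 and -0.16 (95% interval -0.26 to -0.05, adjusted p = 0.035) for Med12, where shMed12-1 was called lower and shMed12-2 was not. The 2 distorted arrays include 1 of those behind the day 8 call, and with the background refitted the change was 0.22 and the call held, in a fit that called 7.75% of all genes.

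The Med25 call depended on single arrays. It was lost without shNTC day 8 replicate 2 (0.22), without shNTC day 8 replicate 3 (0.23) and without shCdk8-1 day 8 replicate 1 (0.21), though the change kept its direction. With the slide as a block the change was 0.24 and the call was lost. On the 1 slide that held both shNTC and a Cdk8 hairpin on day 8, shCdk8-2 was 0.24 above the control. A further Med25 probe gave a mean change of 0.16, with an adjusted p over probes of 0.08. On day 13 that probe gave -0.01 both with shMed12-1 and as the mean for Med12, where the probe used gave -0.28 and -0.16.

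Med23 and Med24, tail neighbours that take signals from several activators, were not called with both hairpins of any knockdown. Med24 on day 8 stood at 0.38, 0.36 and 0.37 with shNTC, 0.63, 0.49 and 0.59 with shCdk8-1 and 0.35, 0.42 and 0.49 with shCdk8-2, and only shCdk8-1 was called, at 0.20 (SE 0.05, adjusted p = 0.012). On day 13 Med24 stood at 0.36, 0.38 and 0.43 with shNTC, 0.49, 0.41 and 0.41 with shCdk8-1, 0.28, 0.29 and 0.34 with shCdk8-2, 0.30, 0.24 and 0.26 with shMed12-1 and 0.24, 0.21 and 0.39 with shMed12-2. No hairpin was called for it on that day, with mean changes of -0.02 for Cdk8 and -0.12 for Med12. Med23 stood on day 8 at 0.48, 0.56 and 0.54 with shNTC, 0.53, 0.50 and 0.67 with shCdk8-1 and 0.21, 0.40 and 0.42 with shCdk8-2. Its day 13 arrays read 0.29, 0.29 and 0.33 with shNTC, 0.59, 0.27 and 0.30 with shCdk8-1, 0.28, 0.28 and 0.17 with shCdk8-2, 0.40, 0.28 and 0.38 with shMed12-1 and 0.27, 0.19 and 0.20 with shMed12-2. No hairpin was called for Med23, and its mean changes were -0.07, 0.01 and -0.01 in early and late Cdk8 knockdown and in Med12 knockdown. Of the other tail subunits, Med15 was not called with any hairpin, and Med16 was called only with the background refitted, higher with shCdk8-2 on day 8 at 0.19. Without the refit, the other Med16 probe gave 0.02 in that comparison (adjusted p over probes = 0.9).

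In the middle module, which links head and tail and contacts the polymerase, Med7 was higher in Cdk8 knockdown on day 13. Its level on that day was 0.83, 0.84 and 0.80 with shNTC, 1.08, 1.05 and 0.96 with shCdk8-1, 0.99, 1.06 and 0.92 with shCdk8-2, 0.72, 0.81 and 0.80 with shMed12-1 and 0.90, 0.99 and 0.92 with shMed12-2. All 6 Cdk8 knockdown arrays lay above the controls, and the mean change was 0.19 (95% interval 0.10 to 0.28, adjusted p = 0.006). With Med12 hairpins the mean change was 0.03 (95% interval -0.06 to 0.12, adjusted p = 0.63) and the arrays overlapped with the controls. On day 8 Med7 stood at 1.03, 1.05 and 1.08 with shNTC, 1.06, 1.07 and 1.14 with shCdk8-1 and 1.19, 1.29 and 1.25 with shCdk8-2, where only shCdk8-2 was called, at 0.19 (SE 0.05, adjusted p = 0.011).

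The day 13 call of Med7 was lost without shNTC replicate 1 (0.19), replicate 2 (0.20) or replicate 3 (0.17), and without shCdk8-2 replicate 1 (0.19) or replicate 2 (0.17). It was also lost with the slide as a block, where the change was 0.21, and with no filter on dim probes, where it was 0.19. On the slide that held shNTC and shCdk8-2 together, the difference was 0.09.

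Other middle subunits were called with 1 hairpin or in 1 knockdown. Med10 on day 8 stood at -0.24, -0.24 and -0.24 with shNTC, -0.35, -0.35 and -0.34 with shCdk8-1 and -0.45, -0.35 and -0.52 with shCdk8-2, lower on all 6 knockdown arrays but called only with shCdk8-2. The day 13 values were -0.37, -0.40 and -0.33 with shNTC, -0.45, -0.38 and -0.38 with shCdk8-1, -0.26, -0.28 and -0.35 with shCdk8-2, -0.11, -0.10 and -0.04 with shMed12-1 and -0.32, -0.23 and -0.33 with shMed12-2. The shMed12-1 arrays were the highest of that day, at a change of 0.28 (SE 0.05, adjusted p = 0.00017), while shMed12-2 was not called. Med21, a partner of Med7, stood on day 13 at 0.06, 0.05 and 0.03 with shNTC, -0.07, 0.03 and -0.12 with shCdk8-1, 0.02, 0.14 and 0.13 with shCdk8-2, -0.03, -0.06 and -0.0023 with shMed12-1 and -0.25, -0.22 and -0.20 with shMed12-2, and was called lower with shMed12-2 at -0.27 (SE 0.07, adjusted p = 0.0083) and not with shMed12-1. On day 8 Med21 stood at 0.12, 0.24 and 0.13 with shNTC, 0.01, 0.10 and 0.08 with shCdk8-1 and 0.42, 0.04 and 0.25 with shCdk8-2, with overlapping groups. Med31 stood on day 8 at -0.19, -0.17 and -0.13 with shNTC, -0.08, -0.23 and -0.43 with shCdk8-1 and -0.40, -0.41 and -0.38 with shCdk8-2, and on day 13 at -0.10, -0.08 and -0.06 with shNTC, -0.28, -0.18 and -0.22 with shCdk8-1, -0.16, -0.35 and -0.28 with shCdk8-2, 0.01, -0.03 and -0.02 with shMed12-1 and -0.16, -0.09 and -0.14 with shMed12-2. It was called lower only with shCdk8-2 on day 8, at -0.24 (SE 0.06, adjusted p = 0.018), and with the background refitted also on day 13, at -0.18.

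Med1, which binds nuclear receptors, had the widest range of group means of any tested member, 0.57 from the lowest to the highest group. On day 8 it stood at 0.87, 0.91 and 1.01 with shNTC, 1.19, 1.19 and 0.85 with shCdk8-1 and 1.17, 1.15 and 1.09 with shCdk8-2. Levels on day 13 were 0.64, 0.73 and 0.85 with shNTC, 0.57, 0.62 and 0.51 with shCdk8-1, 1.33, 0.96 and 0.75 with shCdk8-2, 0.69, 0.65 and 0.49 with shMed12-1 and 0.70, 0.68 and 0.89 with shMed12-2. Within shCdk8-2 on day 13 the 3 arrays spanned from 0.75 to 1.33, so the mean change of 0.05 (95% interval -0.15 to 0.25, adjusted p = 0.82) had a wide interval. No hairpin was called against shNTC for Med1. Its 3 probes gave different patterns, and on day 8 the mean changes by probe were 0.18, 0.07 and 0.01. Med4 and Med9 were not called with any hairpin.

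The head module, which docks on the polymerase, had calls with single hairpins, and of those named here only Med11 with shMed12-2 held with the slide as a block. Med11 stood on day 8 at 0.50, 0.46 and 0.51 with shNTC, 0.27, 0.33 and 0.19 with shCdk8-1 and 0.30, 0.44 and 0.43 with shCdk8-2. The later arrays, of day 13, gave 0.63, 0.54 and 0.60 with shNTC, 0.35, 0.41 and 0.42 with shCdk8-1, 0.77, 0.73 and 0.71 with shCdk8-2, 0.68, 0.67 and 0.73 with shMed12-1 and 0.78, 0.79 and 0.79 with shMed12-2. It was called lower with shCdk8-1 on both days, at -0.23 (SE 0.05, adjusted p = 0.0024) and -0.20 (SE 0.05, adjusted p = 0.0076), and higher with shMed12-2 at 0.20 (SE 0.05, adjusted p = 0.0056). With shCdk8-2 it was not called, at -0.10 on day 8 and 0.14 on day 13, though the latter was called higher with the background refitted. Med22 was called higher with shCdk8-1 on both days, at 0.30 (SE 0.06, adjusted p = 0.0016) and 0.19 (SE 0.06, adjusted p = 0.042), against -0.01 and -0.06 with shCdk8-2; its other probe, described further on, gave 0.06 and 0.07 with shCdk8-1. Med19 was called lower with shCdk8-2 on day 8, at -0.23, and Med18 lower with shMed12-1, at -0.30. The other Med19 probe gave -0.11 (adjusted p over probes = 0.49). The other Med18 probe gave -0.38 (adjusted p over probes = 0.028), where 23.5% of all probes were called. Med8 and Med20 were not called with any hairpin. Med17, a central head subunit, was well above background on all 24 arrays with 1 probe but lacked a value on shMed12-1 day 13 replicate 3. Its values there ran from 1.37 to 1.64, and the group means were 1.62 in shNTC day 8, 1.45 in shCdk8-1 day 8, 1.51 in shCdk8-2 day 8, 1.55 in shNTC day 13, 1.47 in shCdk8-1 day 13, 1.54 in shCdk8-2 day 13, 1.57 over 2 arrays of shMed12-1 and 1.39 in shMed12-2.

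Med14, the backbone, had 1 probe, which was well above background on 3 of 24 arrays, so its mRNA was not tested and no level is given. The same holds for the other Med17 probe, which was well above background on none.

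At the boundary of head and tail, Med28 was higher with both Med12 hairpins. On day 13 it stood at -0.71, -0.89 and -0.77 with shNTC, -0.66, -0.65 and -0.68 with shCdk8-1, -0.64, -0.60 and -0.60 with shCdk8-2, -0.69, -0.67 and -0.49 with shMed12-1 and -0.63, -0.56 and -0.66 with shMed12-2. All 6 Med12 knockdown arrays lay above the controls, the nearest by a narrow margin, and the mean change was 0.18 (95% interval 0.08 to 0.28, adjusted p = 0.012). With the background refitted it was 0.16 and the call held, in a fit that called 10.9% of all genes. In Cdk8 knockdown the mean change was 0.15 on that day, where only shCdk8-2 was called. On day 8 Med28 stood at -0.70, -0.63 and -0.73 with shNTC, -0.57, -0.55 and -0.51 with shCdk8-1 and -0.52, -0.57 and -0.53 with shCdk8-2, all 6 knockdown arrays above the controls at a mean change of 0.14 (95% interval 0.04 to 0.24, adjusted p = 0.055), with neither hairpin called.

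The Med28 call in Med12 knockdown was lost without shNTC day 13 replicate 2 (0.13) or replicate 3 (0.18), without shMed12-1 replicate 3 (0.14), and without shMed12-2 replicate 1 (0.18) or replicate 2 (0.16). In the authors' deposited values the change was 0.12 and was not called. With the slide as a block it was 0.23 and likewise not called with both hairpins, and on the 2 slides that held shNTC and shMed12-2 together the differences were 0.26 and 0.22. Med27 was called lower with shCdk8-2 on day 8, at -0.24, and Med30 lower with shMed12-1, at -0.17. The other Med27 probe gave -0.11 (adjusted p over probes = 0.31). Med29 was not called with any hairpin.

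**Figure D3:**
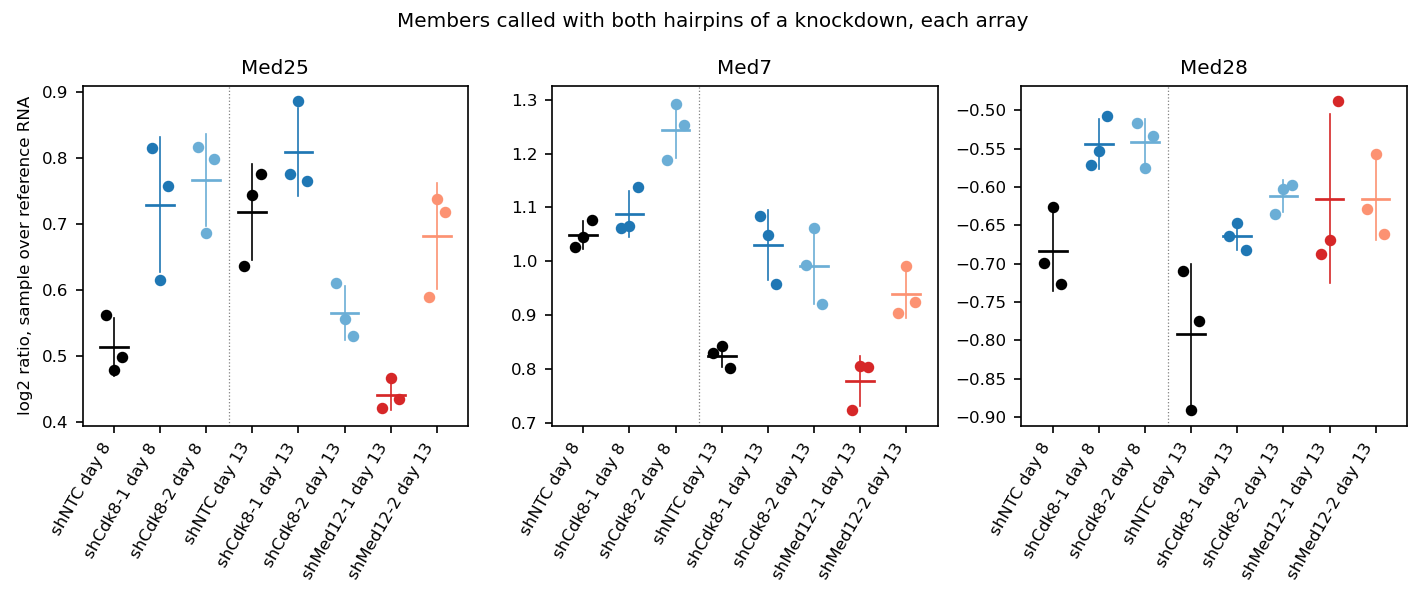
Log2 ratio of sample to reference on each array (dots) for Med25, Med7 and Med28 in the 8 groups, with the group mean (horizontal line) and SD (vertical line, n = 3); the dotted line parts day 8 from day 13 and each panel has its own axis. All Cdk8 knockdown arrays lie above the controls for Med25 on day 8 (controls 0.48 to 0.56), for Med7 on day 13 (0.80 to 0.84) and for Med28 on both days (-0.73 to -0.63 and -0.89 to -0.71); all Med12 knockdown arrays do for Med28.

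The promoters of these 3 members are shown because they are the only ones called with both hairpins. Each is the 250 bases before the annotated start, from RefSeq on GRCm38.p6, 5′ to 3′ in the direction of the gene, with matches to the 6 motifs searched in capitals. The windows are Med25 at chr7:44892425-44892674, minus strand, Med7 at chr11:46436697-46436946, plus strand and Med28 at chr5:45519979-45520228, plus strand.
Med25: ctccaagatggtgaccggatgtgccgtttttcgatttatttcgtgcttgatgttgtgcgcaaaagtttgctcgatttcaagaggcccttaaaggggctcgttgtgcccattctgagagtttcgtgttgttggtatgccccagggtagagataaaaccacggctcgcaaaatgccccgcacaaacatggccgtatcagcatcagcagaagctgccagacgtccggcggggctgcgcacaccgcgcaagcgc
Med7: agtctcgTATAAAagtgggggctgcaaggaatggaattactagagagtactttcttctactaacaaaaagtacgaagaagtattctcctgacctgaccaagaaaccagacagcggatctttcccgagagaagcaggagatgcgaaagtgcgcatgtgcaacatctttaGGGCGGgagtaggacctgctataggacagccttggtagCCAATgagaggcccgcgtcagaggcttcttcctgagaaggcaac
Med28: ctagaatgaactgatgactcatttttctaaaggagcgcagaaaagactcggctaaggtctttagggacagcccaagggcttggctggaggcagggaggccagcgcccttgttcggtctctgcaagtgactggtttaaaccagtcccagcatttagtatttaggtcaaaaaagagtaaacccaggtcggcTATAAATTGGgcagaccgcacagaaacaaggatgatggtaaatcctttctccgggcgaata
Med25 held none of the motifs. Med7 held TATAAA from 243, a GC box (GGGCGG) from 82 and a CCAAT box (CCAAT) from 44 bases before the start. Med28 held TATAAA from 61 and an inverted CCAAT box (ATTGG) from 56 bases before the start, the pair sharing 1 base.

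RefSeq entries were found for 31 of the 38 genes, with 36 promoters in all. Both strands of the 250 bases were searched. The GC box GGGCGG, bound by Sp1, was in 22 of 36 member promoters (61.1%), against 32.7% of all 32851 promoters and 51.7% of the 13900 promoters of genes tested here. The ETS motif CCGGAAG was in 8 (22.2%, against 6.91% and 11.1%), and the NRF1 motif GCGCATGCG in 5 (13.9%, against 1.45% and 2.42%). CCAAT was in 14 (38.9%, against 33.8% and 35.1%), TATAAA in 5 (13.9%, against 12.4% and 8.91%), and the cAMP response motif TGACGTCA in 1 (2.78%, against 1.55% and 2.22%). These shares describe the letters and were not tested.

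Med26, which recruits elongation factors to the complex, had mean changes below 0 in Cdk8 knockdown on both days without being called. On day 8 it stood at 0.66, 0.79 and 0.80 with shNTC, 0.47, 0.63 and 0.57 with shCdk8-1 and 0.32, 0.66 and 0.57 with shCdk8-2. On day 13 it stood at 0.47, 0.44 and 0.55 with shNTC, 0.37, 0.18 and 0.29 with shCdk8-1, 0.57, 0.32 and 0.13 with shCdk8-2, 0.58, 0.63 and 0.61 with shMed12-1 and 0.31, 0.31 and 0.29 with shMed12-2. The arrays overlapped with the controls, and the mean changes were -0.21 (95% interval -0.38 to -0.04, adjusted p = 0.083) and -0.18 (95% interval -0.34 to -0.01, adjusted p = 0.17). In Med12 knockdown the hairpins differed, at 0.12 with shMed12-1 and -0.18 with shMed12-2.

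None of the 7 tested polymerase II subunits was called with a Cdk8 hairpin, where 11.6% to 16.9% of all genes were. Polr2h was called with shMed12-1, where 24.9% of all genes were. Polr2b and Polr2f were called with shMed12-2, where 17.9% were. Polr2b, the large subunit that forms the active centre together with Polr2a, stood on day 8 at 0.61, 0.60 and 0.57 with shNTC, 0.66, 0.52 and 0.62 with shCdk8-1 and 0.63, 0.63 and 0.65 with shCdk8-2. Its values on day 13 were 0.38, 0.48 and 0.54 with shNTC, 0.39, 0.41 and 0.36 with shCdk8-1, 0.42, 0.40 and 0.59 with shCdk8-2, 0.48, 0.45 and 0.41 with shMed12-1 and 0.25, 0.25 and 0.25 with shMed12-2. The shMed12-2 arrays were the lowest of the day, at a change of -0.22 (SE 0.05, adjusted p = 0.007), while shMed12-1 gave -0.02 and was not called. The other Polr2b probe gave -0.17 with shMed12-2 (adjusted p over probes = 0.06). Polr2f, shared with polymerases I and III, stood on day 13 at 0.05, -0.01 and 0.07 with shNTC, -0.13, -0.01 and -0.10 with shCdk8-1, 0.17, -0.01 and -0.03 with shCdk8-2, 0.08, -0.04 and -0.09 with shMed12-1 and -0.26, -0.20 and -0.20 with shMed12-2, and was called lower with shMed12-2 at -0.26 (SE 0.08, adjusted p = 0.02). The other Polr2f probe gave -0.24 with shMed12-2 (adjusted p over probes = 0.028), where 16.9% of all probes were called. On day 8 Polr2f stood at -0.01, 0.03 and 0.04 with shNTC, 0.21, 0.06 and -0.11 with shCdk8-1 and 0.10, -0.07 and -0.12 with shCdk8-2. Polr2h, likewise shared, was called lower with shMed12-1 at -0.22 and not with shMed12-2. Polr2k, a small shared subunit, had the lowest mean change in Cdk8 knockdown on day 8, -0.22 (95% interval -0.39 to -0.06, adjusted p = 0.064), and was not called with either hairpin. With the background refitted, shCdk8-2 was called lower for it, at -0.27. Its arrays on day 8 stood at -0.59, -0.71 and -0.70 with shNTC, -0.80, -0.76 and -0.98 with shCdk8-1 and -1.17, -0.97 and -0.67 with shCdk8-2, with overlap, and on day 13 at -0.86, -0.88 and -0.79 with shNTC, -0.91, -0.71 and -0.87 with shCdk8-1, -0.59, -0.75 and -0.72 with shCdk8-2, -0.67, -0.66 and -0.54 with shMed12-1 and -0.79, -0.84 and -0.85 with shMed12-2. Polr2c, Polr2g and Polr2j, which belong to polymerase II alone, were not called with any hairpin.

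In control cells, 1 member was higher and 2 were lower on day 13 than on day 8, 10% of the 30 against 17.7% of all genes. Med25 was higher at 0.21 (SE 0.06, adjusted p = 0.021), and its other probe gave 0.12 (adjusted p over probes = 0.27). Med7 was lower at -0.22 (SE 0.05, adjusted p = 0.0028) and Med23 at -0.22 (SE 0.07, adjusted p = 0.043). The other Med23 probe gave -0.16 (adjusted p over probes = 0.077). The control arrays of the 2 days did not overlap for any of these 3, and the share of all genes without overlap is not given here. The shNTC day 8 arrays are the same that Med25 was set against in Cdk8 knockdown, and the shNTC day 13 arrays the same for Med7. Leaving out any 1 of the 6 arrays ended the call of Med23, at -0.25 to -0.21. That of Med25 ended without shNTC day 8 replicate 2 (0.19) or replicate 3 (0.20), or without day 13 replicate 2 (0.19) or replicate 3 (0.18).

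Set directly against each other on day 13, which needs no control arrays, Cdk8 and Med12 knockdown differed in 6 members, 20% against 18.3% of all genes. Relative to Med12 knockdown, Med7 at 0.15, Med21 at 0.15 and Med25 at 0.13 were higher in Cdk8 knockdown. Med11 at -0.18, Med31 at -0.17 and Med10 at -0.16 were lower, with adjusted p-values of 0.00073, 0.011 and 0.0015. Of the 6, 4 are middle subunits, and only for Med31 did the 6 arrays of each knockdown not overlap. How many of all genes lacked overlap is not given, so this describes Med31 alone. With the slide as a block Med21 (adjusted p = 0.15) and Med25 (adjusted p = 0.061) were no longer called. The other Med25 probe gave 0.07 (adjusted p over probes = 0.37). The same 6 were called with the background refitted, where 22.6% of all genes were.

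The Cdk8 effect did not pass the test of a difference between day 8 and day 13 for any member. Of all genes, 2.39% were called by limma. An unadjusted p under 0.05 was found for 6 of 30 members. The share of all genes at that level was not counted, and the 2.39% is at an adjusted p, so these 2 values cannot be compared. The largest differences were Polr2k at 0.31 (SE 0.11, adjusted p = 0.19) and Med25 at -0.27 (SE 0.07, adjusted p = 0.061). The other Med25 probe gave -0.10 (adjusted p over probes = 0.71). With the background refitted Med25 was called, at -0.26 with an adjusted p of 0.036, where 5.71% of all genes were. Med25 was also called without shCdk8-1 day 8 replicate 2, without shCdk8-2 day 8 replicate 2 or without shCdk8-1 day 13 replicate 2, and Polr2k without shCdk8-2 day 8 replicate 3.

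Hairpins against the same mRNA were also set against each other. On day 8, shCdk8-2 differed from shCdk8-1 in 6 members, 20% against 17.9% of all genes. On day 13 they differed in 5, 16.7% against 11.8%. The Med12 hairpins differed in 9, 30% against 21.5%. No slide held both hairpins of a target on the same day, so each of these differences is also a difference between slides. The refit gave counts of 7 on day 8, where 23.4% of all genes were called, and 10 for Med12, where 26.8% were. Of these 20 differences 4 held with the slide as a block, against 25.7% of such calls of all genes: Med16 on day 8, and Med1, Med11 and Med16 on day 13, with none for Med12. With median centring none of the 20 held, against 19.3%. The largest gap was Med1 on day 13, 0.45 higher with shCdk8-2, where its other probes gave 0.22 (adjusted p over probes = 0.034) and -0.02 (adjusted p = 0.94) and 10.8% of all probes were called by limma. It was followed by Med11 at 0.34. Med22 differed on both days, at -0.31 and -0.25, while its other probe gave 0.16, the opposite sign, on day 8 and -0.46 on day 13. The knockdown of Cdk8 itself also differed by hairpin. It was -0.71 with shCdk8-1 and -0.31 with shCdk8-2 on day 8, then -0.95 and -0.64 in that order on day 13, and its part in these gaps was not tested. The hairpin gap of Med7 on day 8, 0.16, turned to -0.03 with median centring. It was the only 1 of 70 called values of members that changed sign under refitting, median centring or the authors' deposited values.

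Med22 had a further probe, and the value of the gene depended on which was used. The brighter probe stands for the gene above, and its Med12 arrays lay close to the controls, at 0.71, 0.64 and 0.63 with shNTC, 0.67, 0.60 and 0.62 with shMed12-1 and 0.52, 0.65 and 0.56 with shMed12-2. The other probe gave 1.18, 1.31 and 1.27 with shNTC, 0.71, 0.75 and 0.29 with shMed12-1 and 0.84, 0.96 and 1.02 with shMed12-2. All 6 of those knockdown arrays lay below the controls. The change was -0.67 with shMed12-1 (adjusted p over probes = 0.0011), where 23.5% of all probes were called, and -0.31 with shMed12-2 (adjusted p = 0.14), where 16.9% were. The distorted array shMed12-1 replicate 3 read 0.29 and, with the background refitted, 0.64. The refitted changes were -0.56 (adjusted p = 1.6e-06) and -0.31 (adjusted p = 0.0016), both called, against 25.8% and 23.1% of all probes. With shCdk8-2 on day 13 the change of this probe was -0.39, and with shCdk8-1 it was 0.07. Of 12 such probe pairs, this pair had the largest gap in Med12 knockdown, 0.43. Over the 12 pairs the median gap there was 0.033, and 11 pairs had changes of the same sign. On day 8 this probe gave 0.06 with shCdk8-1 (adjusted p = 0.82), against 0.30 with the probe used, and 0.22 with shCdk8-2 (adjusted p = 0.34), against -0.01.

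**Figure D4:**
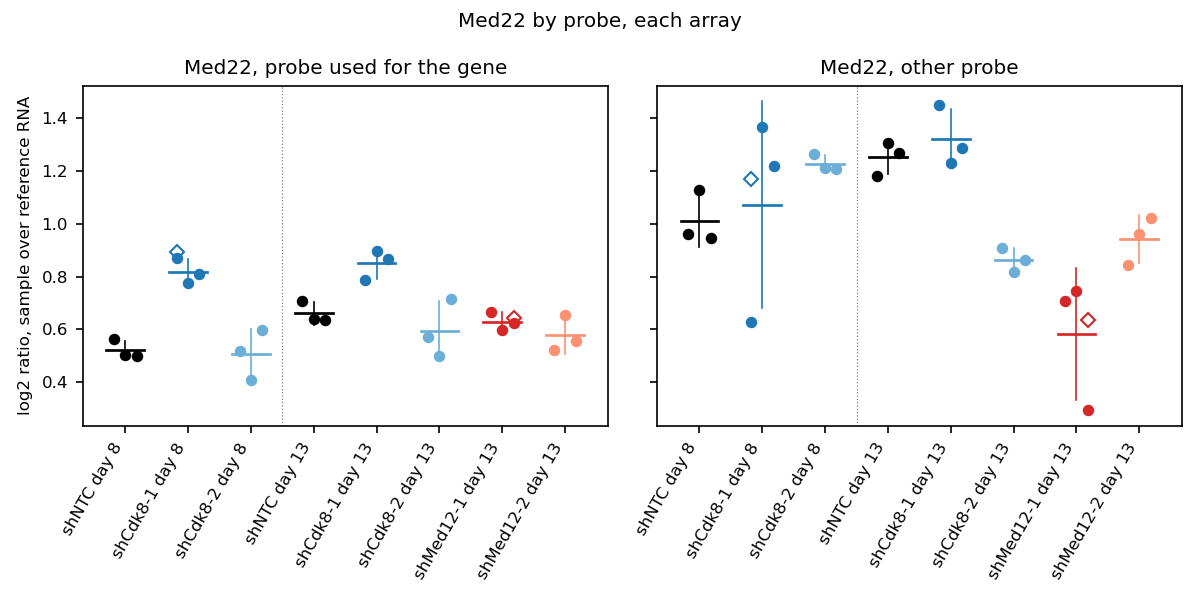
Log2 ratio of sample to reference on each array (dots) for the probe that stands for Med22 and for its other probe, in the 8 groups, with the group mean and SD (n = 3); open diamonds give the 2 distorted arrays after the background was refitted. In Med12 knockdown the probes differ: -0.06 on average with the probe used and -0.49 with the other.

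Other genes of transcription, on lists of related factors, were called in small numbers by the rule of both hairpins, set against the same shares of all genes as above. Of 18 general transcription factors, 2 were lower in Cdk8 knockdown on day 8, Gtf2h2 at -0.34 and Gtf2f2 at -0.27, and none was called on day 13 or in Med12 knockdown. Of 10 tested TFIID factors, Taf11 alone was called, lower at -0.23 on day 8. Of 18 tested pausing and elongation factors, only Supt5 was called, lower at -0.22 in Med12 knockdown. Of 11 assembly factors and CTD phosphatases, Ctdsp1, a phosphatase of the polymerase tail, was higher in Cdk8 knockdown on day 8 at 0.27 and in Med12 knockdown at 0.45. On the same list Rpap2 was lower at -0.27 in the former, and Rpap1 at -0.31 in the latter. These calls held with the background refitted, and 4 were added: Gtf2h5 lower in Cdk8 knockdown on day 8, Ctdsp1 higher on day 13, and Ell3, an elongation factor, lower in both knockdowns on day 13.

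Of 12 tested subunits of polymerases I and III, Polr3gl, a polymerase III subunit, had the largest changes. It was higher in Cdk8 knockdown on day 8 at 0.60 and lower in Med12 knockdown at -0.68. Polr3b, the large partner subunit of polymerase III, was lower at -0.20 in Cdk8 knockdown on day 13 and at -0.18 in Med12 knockdown. The latter was -0.15 with the background refitted and was no longer called, while Polr3e was called lower in Cdk8 knockdown on day 8 at -0.26 and on day 13 at -0.25. Of 5 tested kinase module genes, Med12 was higher in Cdk8 knockdown on day 8, at 0.30 (adjusted p = 0.0047), beside the lower targets. Cyclin C (Ccnc) gave 0.09, 0.03 and 0.04 and Cdk19, the paralogue of Cdk8, gave -0.13, -0.19 and 0.05, none of them called.

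Of the 9 embryonic stem cell markers none was called with both hairpins in limma's test, and with the background refitted 1, 1 and 3 were lower in early and late Cdk8 knockdown and in Med12 knockdown, where 7.75%, 7.01% and 10.9% of all genes were called. By single hairpin, 6 of the 9 were lower with shMed12-1, at a median of -0.90, 3 with shCdk8-1 on day 8 and 1 with shCdk8-1 on day 13, and none with the other hairpins. Those comparisons called 24.9%, 16.9% and 12.7% of all genes, in that order. With the refit the median with shMed12-1 was -0.42. The refitted counts were 8, 4 and 6, and shMed12-2 had 3 lower and shCdk8-2 had 1 on each day. Of all genes, the refit called 26.9% with shMed12-1 and 21.7% with shCdk8-1 on day 8. With shCdk8-2 it called 20.4% on day 8 and 17.5% on day 13. For shCdk8-1 on day 13 and shMed12-2 that share is not given. Markers of other cell types moved with the groups as well. Of 10 fibroblast markers, Acta2, Tagln, Col1a1 and S100a4 were higher in Med12 knockdown, with Acta2 at 1.94 and Tagln at 1.40. Acta2 and Tagln were higher in Cdk8 knockdown on day 13 and lower on day 8. The mean log2 ratio of all 10 lay between -4.94 and -3.48 over all arrays, below that of the reference on every array. Of 8 primitive endoderm markers, 4 were lower in Cdk8 knockdown on day 8, 3 on day 13 and 3 in Med12 knockdown, and with the background refitted 6, 3 and 6. The rule of both hairpins called 5.11%, 4.24% and 8.65% of all genes in that order, and 7.75%, 7.01% and 10.9% with the refit. Of 6 tested neural markers, only Nestin (Nes) was called in Cdk8 knockdown, higher on both days, and only Tubb3 in Med12 knockdown, lower. Of 5 tested trophoblast markers only Gata3 was called, higher on day 13 in both knockdowns. Cdx2, not called by that rule, had a mean change against shNTC of 0.30 in Cdk8 and -0.47 in Med12 knockdown on that day. With the knockdowns set directly against each other, Cdx2 was called higher in Cdk8 knockdown, at 0.77, and Gata3 and Hand1 lower. That comparison called 18.3% of all genes. With the background refitted, Map2 was also higher and Gata3 lower in Cdk8 knockdown on day 8, and Neurod1 lower in Med12 knockdown. In these bulk samples, fewer cells of a type and less RNA per cell cannot be told apart, and the part of these shifts in the members' changes was not tested.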

How the data were processed

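The 24 arrays are Agilent 2-colour arrays read with Agilent Feature Extraction 10.7, per the submitters' processing notes. The deposited scanner files gave median foreground and background intensities and log10 ratios for 45018 spots. The authors' deposited value table held log2 ratios with a slope of about 1 against the scanner's log10 ratios taken to base 2; it was used as an alternative. Aligned coordinates were not used.

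In limma 3.58.1 (R 4.3.3), background was corrected with normexp (offset 50, maximum likelihood), arrays were normalized by loess, and control and outlier spots got weight 0. A probe was kept if at least 1 group had it well above background in Cy5 on each of its 3 arrays, and if no value was missing; 28231 of 41174 probes passed, and the brightest stood for its gene. A model of 8 group means was fitted over all arrays. A knockdown call needed both hairpins in 1 direction at an adjusted p under 0.05. Symbols came from RefSeq through each probe's accession. The script was tested on simulated data. Array number limits the precision.

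The members and lists were chosen with earlier results of these data known. Members named with every array were those called with both hairpins, the 2 highest and 2 lowest per knockdown and day, the largest called in the other comparisons (at most 4 each), and Med1, Med14, Med17, Med23, Med24, Polr2a and Polr2b. The refitted background and the fit without both distorted arrays were added after seeing the data. Alternatives were median centring, another background fit, the authors' values, no filter, every probe, slide or replicate as a block, only the groups compared, and each array left out.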

Additional observations from a re-analysis of the deposited data

How the results depend on the processing

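The number of called members was 1, 1 and 1 with both Cdk8 hairpins on day 8, on day 13 and with both Med12 hairpins, 3 between days in control cells, 6 between Cdk8 and Med12 knockdown, and 0 for the Cdk8 day difference. When loess was replaced by median centring, the first 5 of these were 0, 0, 0, 0 and 0. With the authors' deposited values they were 3, 2, 0, 5 and 10. With the slide as a block, and likewise when only the groups compared were fitted, the first 3 were 0, 0 and 0; in the latter fit the control cells' day comparison gave 5. Without the filter on dim probes the count was 0 on day 13 for Cdk8 and 0 for Med12. Without both distorted arrays it was 0 on day 8 and 0 for Med12. Testing every probe gave 5 between days in control cells, and refitting the background gave 1 for the day difference. Leaving out 1 array at a time gave 0 to 1 for each of the knockdown counts, 1 to 3 between days, 4 to 6 between knockdowns and 0 to 1 for the day difference. For the alternative settings of this section, apart from the refit, the share of all genes called is not given. A higher or lower count there cannot be read as particular to the members. Cause was not tested for any of these changes in count. The labels state no pairing of replicate numbers. Of 18 same-numbered pairs 2 had correlated deviations over 0.1 (range -0.12 to 0.21), both for shCdk8-1 on day 8. With 3 arrays a group and no differently numbered pairs beside them, these values cannot settle whether samples were paired. With the replicate block the 6 counts were 1, 1, 1, 2, 4 and 0. Of 250 values of named genes under these settings, none reversed, 200 kept their call and 50 lost it. These include the targets Cdk8 and Med12, whose calls were kept more often than those of Med25, Med7 and Med28. With 1 array left out, the call with both hairpins was kept in 6 of 9 fits for Med25, 4 of 9 for Med7 and 4 of 9 for Med28. Under the other settings it was kept in 6 of 10, 6 of 10 and 4 of 10. Signal over background limits Med14 and both dim probes of Med17 and Med28.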
